A study of Mus musculus with 4 samples.

Results

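The genes described here are 39 mouse genes of cholesterol and fatty acid synthesis and of its control by SREBP, the sterol regulatory element binding proteins. They were chosen by symbol from a list. All 39 were found among the 24421 symbols of the deposited table. They fall into a sterol branch of 19 genes (18 enzymes and 1 sterol carrier), a fatty acid branch of 15 genes, and 5 regulators. Liver RNA was sequenced from hepatectomized mice in 2 groups. The control group received fibrin gel, and the gelADSC group received the same gel with ADSC in it (stem cells derived from adipose tissue). Both groups had therefore undergone hepatectomy and carried the gel. Each group has 2 libraries, called here by the number in the table's column names (control 1 and 3, gelADSC 2 and 3). The labels used here give no strain, age, time after surgery or source of the ADSC. Nor do they say whether the libraries of a group are separate animals, so p-values measure only the spread between these libraries, which may be technical.

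SREBP transcription factors are made as precursors in the endoplasmic reticulum membrane, bound to the escort protein SCAP. When sterols are scarce, SCAP carries them to the Golgi, where proteases release the active factor. When sterols are plentiful, the INSIG proteins hold SCAP in the endoplasmic reticulum. SREBP2, from Srebf2, mainly drives cholesterol synthesis, and SREBP1c, a product of Srebf1, mainly drives fatty acid synthesis in response to insulin in liver.

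Each value is in FPKM, a level scaled by gene length and by the reads of the library, so levels of different genes can be set side by side. A log2 change is the mean of log2(FPKM + 1) in gelADSC less that in control, which understates the change of low genes. A gene was tested if its mean over the 4 libraries was at least 1 FPKM, which 38 of the 39 members and 11070 genes in all reached. The exception was Pnpla3. The test was limma with Benjamini-Hochberg adjustment over all 11070 genes, and "rose" or "fell" is used only at an adjusted p under 0.05.

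In outline, sterol branch genes were lower in gelADSC, with 13 of 19 called lower and 1 higher, while 17.5% of all tested genes were called lower and 6.92% higher (24.4% in either direction). Their median log2 change was -1.27, against -0.25 over all tested genes. The fatty acid branch was mixed, with 6 of 14 tested genes lower, 1 higher and a median of -0.42. Among the regulators Insig2 and Srebf2 fell and Srebf1 rose. With the libraries rescaled to a common median ratio, 2 sterol genes (Mvd and Hsd17b7) and 1 fatty acid gene (Elovl5) were still called lower. The median of the sterol branch was then -0.98, that of the fatty acid branch -0.13, and of all genes 8.56% were called lower and 8.6% higher.

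The shift of all genes matters for reading these counts. Of all tested genes, 766 were called higher and 1936 lower, so that 28.3% of calls were higher. With median ratio scaling, which moves the median of all genes up by 0.25, 50.1% of calls were higher. From the steps between low values, depth was put at about 18100000 to 24400000 reads a library. In a gene of 2 kb, a single read then adds 0.0205 to 0.0276 FPKM. Hepatocyte markers were present as the labels say, with summed levels of 31900 to 51200 FPKM over 5 markers in the table (Alb, Apoa1, Ttr, Hnf4a and Apob), mostly Alb. These markers went both ways between the groups. Apoa1 read lower in both gelADSC libraries than in both controls, Ttr and Apob read higher, and Alb and Hnf4a overlapped. In bulk tissue, fewer cells of a type and less RNA per cell cannot be told apart.

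Promoter sequence is shown first for genes on which the results turn. The 4 sterol enzymes with the lowest log2 changes (Mvd, Hsd17b7, Lss and Hmgcs1) are set beside Ebp, which rose, and Insig2, the regulator with the largest change. Each is a stretch of at most 250 bases upstream of the transcription start in RefSeq (build GRCm38.p6), 5′ to 3′ on the gene's own strand, cut to hold no exon annotated in GENCODE M21. Capitals mark matches, on either strand, to the sterol regulatory element core TCACNCCAC, the NF-Y box CCAAT, the GC box GGGCGG bound by Sp1 and the E-box CACGTG.
Hmgcs1: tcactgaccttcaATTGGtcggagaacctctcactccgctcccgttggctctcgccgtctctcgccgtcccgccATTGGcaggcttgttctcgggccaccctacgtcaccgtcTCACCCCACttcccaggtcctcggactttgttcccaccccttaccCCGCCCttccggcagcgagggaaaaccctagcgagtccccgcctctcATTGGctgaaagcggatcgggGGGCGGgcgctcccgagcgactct
Mvd: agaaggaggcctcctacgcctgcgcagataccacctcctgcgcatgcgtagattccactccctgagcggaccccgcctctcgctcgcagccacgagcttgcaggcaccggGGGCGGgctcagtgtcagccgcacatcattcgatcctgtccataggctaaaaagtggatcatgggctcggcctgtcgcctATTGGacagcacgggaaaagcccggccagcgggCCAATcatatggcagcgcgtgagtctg
Hsd17b7: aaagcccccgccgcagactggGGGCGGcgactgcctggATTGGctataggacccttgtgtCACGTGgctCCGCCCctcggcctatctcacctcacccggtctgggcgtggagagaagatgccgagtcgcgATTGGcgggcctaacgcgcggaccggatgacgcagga
Lss: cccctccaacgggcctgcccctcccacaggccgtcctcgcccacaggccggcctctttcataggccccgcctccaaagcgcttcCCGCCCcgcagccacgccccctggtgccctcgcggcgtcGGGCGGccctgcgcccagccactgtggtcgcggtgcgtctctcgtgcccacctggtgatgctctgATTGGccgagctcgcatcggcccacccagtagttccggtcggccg
Ebp: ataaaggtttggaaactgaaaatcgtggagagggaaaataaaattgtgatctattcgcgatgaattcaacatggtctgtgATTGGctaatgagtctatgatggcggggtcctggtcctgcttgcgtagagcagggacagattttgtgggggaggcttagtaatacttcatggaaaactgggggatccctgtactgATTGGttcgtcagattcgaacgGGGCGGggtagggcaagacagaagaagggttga
Insig2: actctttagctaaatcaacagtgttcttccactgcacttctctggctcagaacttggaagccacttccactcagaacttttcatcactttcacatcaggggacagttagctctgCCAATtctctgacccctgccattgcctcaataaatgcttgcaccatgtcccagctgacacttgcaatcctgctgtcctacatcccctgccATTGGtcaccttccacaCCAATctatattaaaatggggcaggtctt
They lie at chr13:119690101-119690350 (plus strand, Hmgcs1), chr8:122443423-122443672 (minus strand, Mvd), chr1:169969242-169969408 (minus strand, Hsd17b7), chr10:76531355-76531587 (plus strand, Lss), chrX:8193513-8193762 (minus strand, Ebp) and chr1:121332590-121332839 (minus strand, Insig2). The Insig2 stretch belongs to the most upstream of 3 starts in the table.

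In these stretches the element TCACCCCAC stands in Hmgcs1 with its first base 137 bases upstream of the start, between NF-Y boxes read as ATTGG. Mvd, Hsd17b7, Lss and Ebp hold NF-Y and GC boxes in the printed bases, and Hsd17b7 also holds an E-box. The Insig2 stretch holds 3 NF-Y boxes and no GC box, but a GC box lies near a start of Insig2 outside the printed bases. RefSeq windows of 300 bases (250 before and 50 after the start) were found for 33 of the 39 members, some with several starts. A CCAAT match lay in a window of 27 of the 33 members (81.8%), and in 41.1% of all 27025 genes in the table. For GGGCGG the shares were 26 of 33 (78.8%) and 38.2%, and for CACGTG 6 of 33 (18.2%) and 8.09%. The shares of all genes include genes that were not tested here. Counted by single window, CCAAT lay in 65.1% of the 43 member windows and in 37.4% of all windows. For GGGCGG these shares were 69.8% and 35.7%. Only Hmgcs1 among the 33 held TCACNCCAC, which 1.44% of all genes held. Within the sterol branch 14 of 15 matched genes held CCAAT and 14 held GGGCGG, while in the fatty acid branch it was 9 and 7 of 13. These matches are letters in a window and show no binding.

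The first steps of cholesterol synthesis join acetyl-CoA units into mevalonate and then into squalene. All 8 genes of these steps were lower in both gelADSC libraries than in both controls, and 6 passed the test. Over all tested genes, 50.5% were lower and 19.2% higher without overlap. Acat2, the cytosolic thiolase that makes acetoacetyl-CoA, read 108 and 145 FPKM in control libraries 1 and 3 and 75.7 and 54.0 in gelADSC libraries 2 and 3. It fell with a log2 change of -0.95 (SE 0.24, limma adjusted p = 0.0232). Hmgcs1, the cytosolic HMG-CoA synthase, read 459 and 641 FPKM in the controls against 216 and 98.4 in gelADSC. Its mean was 3.5-fold lower in gelADSC, and its log2 change was -1.89 (SE 0.35, adjusted p = 0.00756). Hmgcs1 stood at rank 99 of 11070 genes by control mean and at rank 377 by gelADSC mean.

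The kinases and the decarboxylase that turn mevalonate into isopentenyl diphosphate all fell. Mvd, mevalonate diphosphate decarboxylase, read 70.0 and 76.6 FPKM in the controls, which were close to each other, and 16.6 and 7.03 in gelADSC. Its mean was 6.2-fold lower (log2 change -2.64, SE 0.33, adjusted p = 0.0013), the lowest log2 change of the sterol branch. Mvk, mevalonate kinase, read 39.8 and 65.2 FPKM in the controls against 31.4 and 12.2 in gelADSC. That is a log2 change of -1.33 (SE 0.40, adjusted p = 0.0436), and control library 1 lay nearer to gelADSC library 2 than to the other control. Pmvk, phosphomevalonate kinase, read 92.9 and 140 FPKM in the controls against 47.0 and 33.1 in gelADSC, with a log2 change of -1.51 (SE 0.26, adjusted p = 0.00508).

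Idi1, the isomerase that interconverts the 5-carbon units, read 209 and 361 FPKM in the controls against 146 and 71.5 in gelADSC (log2 change -1.42, adjusted p = 0.0257). Fdps and Fdft1, which make farnesyl diphosphate and squalene, did not pass the test. Fdps read 220 and 358 FPKM in the controls against 207 and 92.6 in gelADSC (log2 change -1.01, 95% interval -1.88 to -0.15, adjusted p = 0.0819). With only genes of at least 5 FPKM, Fdps passed (limma adjusted p = 0.049), while with median ratio scaling its adjusted p was 0.374. Fdft1 read 71.1 and 108 FPKM in the controls against 69.2 and 26.4 in gelADSC (log2 change -1.01, interval -1.94 to -0.09, adjusted p = 0.0979). In both, gelADSC library 2 lay just under control library 1, while library 3 was far below. Without gelADSC library 2 their adjusted p values were 3.89e-06 (Fdps) and 1.1e-06 (Fdft1), with the spread taken from the controls alone. Without gelADSC library 3 their log2 changes were -0.44 (Fdps, adjusted p = 0.326) and -0.33 (Fdft1, 0.471).

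Later enzymes turn squalene into cholesterol through lanosterol. Of 10 enzymes 7 fell, 1 rose and 2 did not pass the test. Sqle, squalene epoxidase and a flux-controlling step, read 96.1 and 131 FPKM in the controls against 53.7 and 27.0 in gelADSC, a 2.81-fold lower mean (log2 change -1.53, SE 0.32, adjusted p = 0.0111). Lss, lanosterol synthase, which closes the sterol rings, read 64.4 and 98.3 FPKM in the controls against 25.5 and 10.1 in gelADSC (log2 change -2.23, SE 0.38, adjusted p = 0.00508). Its rank moved from 862 to 2793. Cyp51, the lanosterol demethylase, read 134 and 214 FPKM in the controls against 92.9 and 52.4 in gelADSC (log2 change -1.27, SE 0.31, adjusted p = 0.0227).

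Next come the enzymes that remove methyl groups from the sterol ring. Msmo1, methylsterol monooxygenase, read 292 and 459 FPKM in the controls against 193 and 53.3 in gelADSC (log2 change -1.84, SE 0.51, adjusted p = 0.0327). Its gelADSC libraries differed by -1.83 on the log2 scale, as much as the groups did. Nsdhl, the sterol dehydrogenase, read 93.2 and 146 FPKM in the controls against 69.8 and 40.2 in gelADSC (log2 change -1.12, adjusted p = 0.0308). Hsd17b7, the keto-reductase of the same complex, read 60.4 and 87.6 FPKM in the controls against 19.3 and 10.7 in gelADSC. Its mean was 4.94-fold lower (log2 change -2.26, SE 0.29, adjusted p = 0.00151). It was called under every alternative with all 4 libraries, with adjusted p from 0.000293 to 0.0415. Its log2 change was -2.66 to -1.86 with a library left out.

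Dhcr7 and Ebp act late in the pathway. Dhcr7, the reductase that turns dehydrocholesterol into cholesterol, read 83.8 and 114 FPKM in the controls against 62.0 and 31.9 in gelADSC (log2 change -1.12, adjusted p = 0.0327). Ebp, the sterol isomerase, went the other way, with 68.7 and 89.9 FPKM in the controls against 147 and 137 in gelADSC. Ebp rose 1.79-fold by mean (log2 change 0.84, SE 0.20, adjusted p = 0.0211), and its call was lost with no filter (0.0614) or when either control library 1 (0.134) or gelADSC library 2 (0.0527) was left out. Sc5d, the sterol desaturase that acts after Ebp, read 197 and 250 FPKM in the controls against 255 and 201 in gelADSC, overlapping fully (log2 change 0.03, 95% interval -0.48 to 0.53). Tm7sf2, a sterol reductase, read 63.6 and 88.4 FPKM in the controls against 72.8 and 47.0 in gelADSC, with overlap. Stard4, which carries sterols between membranes, read 24.0 and 32.8 FPKM in the controls against 25.0 and 20.0 in gelADSC, also with overlap.

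**Figure D1:**
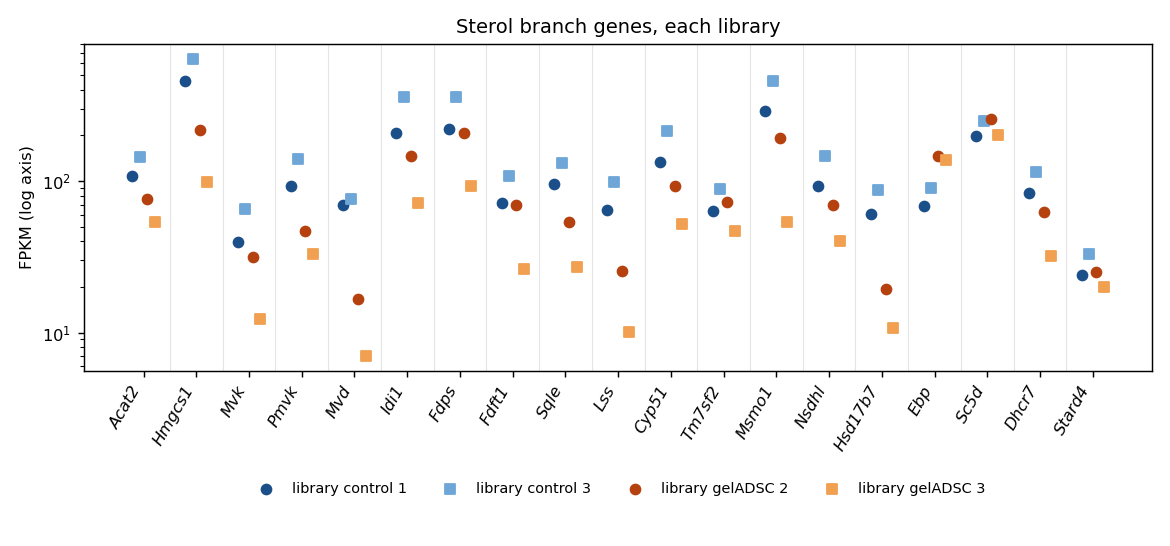
FPKM of the 19 sterol branch genes (log axis) in each of the 4 libraries, in pathway order with the carrier Stard4 last; each point is 1 library. In 15 genes both gelADSC libraries lie below both controls, in Ebp both lie above, and in Tm7sf2, Sc5d and Stard4 they overlap. Of all tested genes, 50.5% were lower and 19.2% higher without overlap.

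The same order of libraries ran through the whole sterol branch. All 19 genes were higher in control library 3 than in control library 1, and all 19 were lower in gelADSC library 3 than in gelADSC library 2. Both held at once for 11.3% of all tested genes, where 23.1% met the first and 33.1% the second. The median differences were 0.53 between the controls and -0.94 between the gelADSC libraries, while over all tested genes they were -0.21 and 0.10. Against the control mean, the sterol branch stood at a median of -0.73 in gelADSC library 2 and -1.69 in library 3. Summed over its 19 genes, the branch came to 2450 and 3610 FPKM in control libraries 1 and 3 and to 1820 and 1030 FPKM in gelADSC libraries 2 and 3. This spread between libraries enters the test. Without control library 1 the branch had 2 genes called lower (Pmvk and Hsd17b7), and without control library 3 it had 3 (Pmvk, Mvd and Hsd17b7). Without gelADSC library 3 it had 9, with Mvk, Nsdhl, Dhcr7 and Acat2 no longer called. The median of the branch lay between -1.69 and -0.73 with each library left out in turn.

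**Figure D2:**
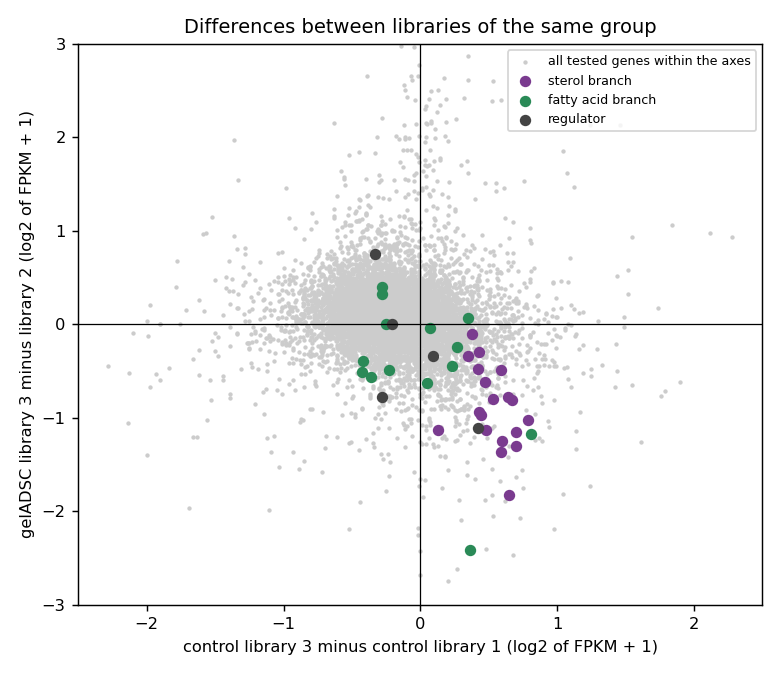
Difference between control libraries 3 and 1 (horizontal) and between gelADSC libraries 3 and 2 (vertical), both as log2 of FPKM + 1, for each tested gene; colours mark the 3 sets of members and grey all tested genes within the axes. All 19 sterol branch genes lie in the lower right of the plot, a region where 11.3% of all tested genes lie.

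The fatty acid branch builds malonyl-CoA from citrate-derived acetyl-CoA, elongates it to palmitate and then lengthens and desaturates the product. Of the 14 tested genes 6 fell, 1 rose and 7 did not pass. Acly, ATP citrate lyase, which supplies cytosolic acetyl-CoA, read 85.6 and 100 FPKM in the controls against 57.4 and 41.9 in gelADSC (log2 change -0.90, SE 0.22, adjusted p = 0.02). Fasn, fatty acid synthase, read 62.1 and 64.6 FPKM in the controls against 39.4 and 25.0 in gelADSC, a 1.97-fold lower mean (log2 change -0.99, SE 0.24, adjusted p = 0.02). Me1, the malic enzyme that supplies NADPH, read 44.2 and 36.2 FPKM in the controls against 19.5 and 24.9 in gelADSC (log2 change -0.83, adjusted p = 0.0237). The groups did not overlap in these genes, and the control values of Fasn were close together.

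The acetyl-CoA carboxylases, which make malonyl-CoA between the steps of Acly and Fasn, did not pass the test. Acaca read 9.78 and 8.08 FPKM in the controls against 8.20 in both gelADSC libraries, with the controls on both sides of gelADSC (log2 change -0.10, 95% interval -0.56 to 0.35). Acacb, the mitochondrial form, read 8.36 and 6.27 FPKM in the controls against 8.53 and 5.48 in gelADSC (log2 change -0.07, interval -0.65 to 0.50). Both signs turned with median ratio scaling, where the log2 changes were 0.16 for Acaca and 0.19 for Acacb. Acss2, which makes acetyl-CoA from acetate, read 43.0 and 76.0 FPKM in the controls against 62.6 and 27.4 in gelADSC, with overlap (adjusted p = 0.413). Its libraries followed the order seen in the sterol branch.

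Mid1ip1 and Thrsp encode small related proteins that promote lipogenesis. Mid1ip1, which promotes acetyl-CoA carboxylase polymerization, read 10.8 and 7.75 FPKM in the controls against 20.2 and 13.9 in gelADSC. It rose, with a log2 change of 0.81 (SE 0.25, adjusted p = 0.0449), and the call was lost without control library 1 (0.117), control library 3 (0.177) or gelADSC library 2 (0.314). Its relative Thrsp (Spot 14) read 27.4 and 35.4 FPKM in the controls against 113 and 20.3 in gelADSC libraries 2 and 3. The value of 113 FPKM lay far above the other 3 libraries (log2 change 0.62, SE 0.62, adjusted p = 0.491). Thrsp read higher in gelADSC without gelADSC library 3 (log2 change 1.82) and lower without library 2 (log2 change -0.59).

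Enzymes that shape the acyl chain were split. Scd1, the stearoyl-CoA desaturase that makes oleate, read 219 and 180 FPKM in the controls against 99.2 and 131 in gelADSC (log2 change -0.79, SE 0.22, adjusted p = 0.032). Elovl5, an elongase of polyunsaturated chains, read 212 and 222 FPKM in the controls against 94.8 and 92.0 in gelADSC, with both groups tight (log2 change -1.21, SE 0.18, adjusted p = 0.00306). Elovl6, which extends palmitate to stearate, read 24.5 and 18.0 FPKM in the controls against 12.2 and 9.07 in gelADSC (log2 change -0.94, SE 0.23, adjusted p = 0.0222). Elovl5 was called under every alternative with all 4 libraries, with adjusted p from 0.00136 to 0.0368. The other 2 were not, Scd1 reaching 0.0976 with median ratio scaling and Elovl6 0.11 with quantile normalization. With a library left out, the log2 change of Elovl5 was -1.24 to -1.17.

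Desaturases of polyunsaturated chains did not pass the test. Fads1 read 94.8 and 121 FPKM in the controls against 114 and 119 in gelADSC (95% interval of the log2 change -0.34 to 0.58). Fads2 read 343 and 414 FPKM in the controls against 316 and 266 in gelADSC (log2 change -0.38, adjusted p = 0.216). Gpam, which starts glycerolipid assembly, read 36.2 and 30.6 FPKM in the controls against 43.5 and 30.6 in gelADSC, with overlap (interval -0.38 to 0.64). Pnpla3, a lipid droplet acyl hydrolase, was too low to be tested, at 1.12 and 1.07 FPKM in the controls against 0.326 and 0.0747 in gelADSC. Its gelADSC values are both below its control values, and only that of gelADSC library 3 is at a level of few reads.

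Over the fatty acid branch, 7 of 14 genes read higher in control 3 than in control 1, and 10 read lower in gelADSC 3 than in gelADSC 2. Both orders held for 6 of the 14. Over all tested genes, 23.1% met the first order, 33.1% the second and 11.3% both. The branch summed to 1220 and 1320 FPKM in the controls and to 1010 and 816 FPKM in gelADSC. Whether the sterol and fatty acid branches differ was not tested. Leaving out control library 1 left 1 gene called lower (Elovl5). Leaving out control library 3 left 3 (Me1, Elovl5 and Elovl6), and leaving out gelADSC library 3 also left 3 (Me1, Scd1 and Elovl5). Without gelADSC library 2, Me1 and Scd1 were not called.

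**Figure D3:**
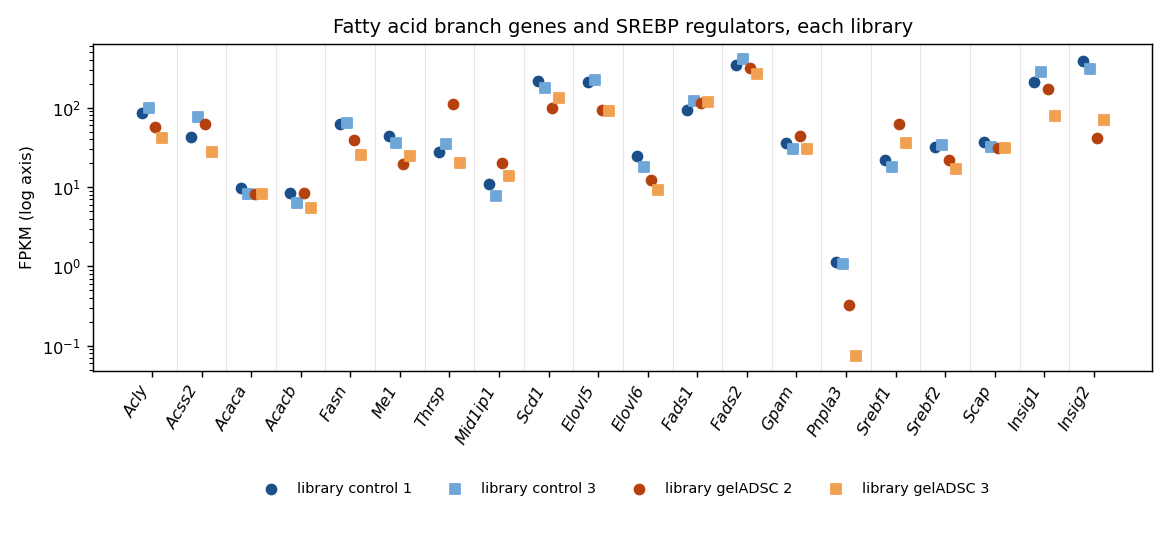
FPKM (log axis) of the 15 fatty acid branch genes and the 5 regulators in each of the 4 libraries; each point is 1 library. Elovl5 and Insig2 show the groups well apart, Acaca and Fads1 overlap, and Thrsp is high in gelADSC library 2 alone.

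Of the 5 regulators 2 fell, 1 rose and 2 did not pass the test. Insig2, the INSIG that is less dependent on SREBP for its own transcription, read 390 and 310 FPKM in the controls against 41.7 and 71.0 in gelADSC libraries 2 and 3. The groups were far apart, with a 6.21-fold lower mean in gelADSC (log2 change -2.65, SE 0.27, adjusted p = 0.000552). Insig2 passed the test under every alternative with all 4 libraries, with adjusted p from 8.29e-05 to 0.0207. Its log2 change was -2.36 with median ratio scaling and -3.03 to -2.28 with a library left out. Its rank moved from 179 to 1037. The table gives 1 value for the gene, so its alternative starts cannot be told apart.

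Insig1, itself a target of SREBP, read 210 and 281 FPKM in the controls against 173 and 79.7 in gelADSC. The groups did not overlap, but the change did not pass the test (log2 change -1.04, 95% interval -1.83 to -0.26, adjusted p = 0.0573). It passed with only genes of at least 5 FPKM (adjusted p = 0.0323). Its log2 change was -1.6 without gelADSC library 2 and -0.49 without gelADSC library 3. With median ratio scaling the log2 change was -0.75 (adjusted p = 0.307). Insig1 followed the library order of the sterol branch, and Insig2 followed the reverse order in both groups. The ratio of Insig1 to Insig2 FPKM was 0.540 and 0.908 in the controls and 4.16 and 1.12 in gelADSC libraries 2 and 3.

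The factors themselves went in opposite directions. Srebf1 read 21.8 and 17.8 FPKM in the controls against 62.9 and 36.1 in gelADSC, and rose 2.5-fold by mean (log2 change 1.23, SE 0.27, adjusted p = 0.0144). Srebf2 read 32.2 and 34.3 FPKM in the controls against 21.9 and 17.1 in gelADSC, and fell (log2 change -0.75, SE 0.20, adjusted p = 0.0289). The ratio of Srebf1 to Srebf2 FPKM was 0.677 and 0.519 in the controls and 2.87 and 2.11 in gelADSC. Srebf1 kept its call with median ratio scaling (log2 change 1.52, adjusted p = 0.0425), whereas Srebf2 did not (log2 change -0.47, adjusted p = 0.184). Neither was called without control library 1 (0.112 for Srebf1, 0.127 for Srebf2) or without control library 3 (0.0927 and 0.0871). Srebf1 was also not called without gelADSC library 2 (0.0541), nor Srebf2 without gelADSC library 3 (0.196). The table gives 1 value per gene, so the transcripts for SREBP1a and SREBP1c cannot be told apart. Scap read 37.4 and 32.2 FPKM in the controls against 31.4 and 31.5 in gelADSC (log2 change -0.14, 95% interval -0.56 to 0.29), and its sign turned with median ratio scaling (0.15).

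**Figure D4:**
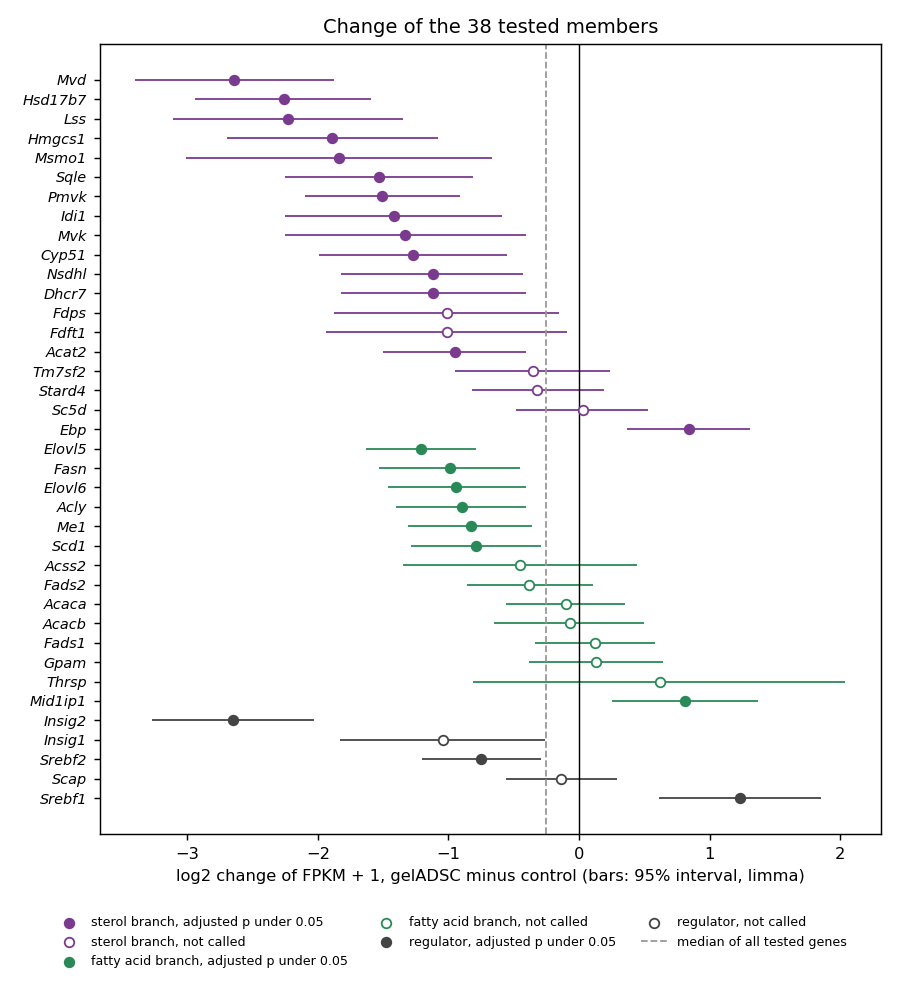
Log2 change of FPKM + 1 (gelADSC minus control) with its 95% interval from limma for the 38 tested members, by branch; filled points passed an adjusted p under 0.05 and the dashed line is the median of all tested genes, -0.25. Most sterol branch genes lie left of the dashed line, while Ebp, Mid1ip1 and Srebf1 are the 3 filled points right of 0.

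Other genes around the pathway were taken from 6 further lists, with 62 tested genes, of which 4 rose and 15 fell. That is read against 6.92% of all tested genes called higher and 17.5% called lower, with a median of -0.25, and nothing particular to these lists is drawn from their counts. Among 13 genes of SREBP processing and partner factors, 1 rose, 0 fell, and the median was -0.12. The one that rose was Mlxipl, which encodes the glucose-responsive factor ChREBP. It read 32.3 and 22.3 FPKM in the controls against 84.2 and 88.8 in gelADSC (log2 change 1.65, adjusted p = 0.00164), and was called under every alternative run. The protease genes that cleave SREBP, Mbtps1 and Mbtps2, did not pass (adjusted p = 0.415 and 0.0903), nor did the liver X receptor gene Nr1h3 (0.731).

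In the supply of citrate, glucose and NADPH, 1 of 10 genes rose and 5 fell, with a median of -0.59. The one that rose was Khk, ketohexokinase (log2 change 0.74, adjusted p = 0.0439), and its call was lost without control library 1 (0.0635), control library 3 (0.139) or gelADSC library 2 (0.112). The largest falls were those of the pentose phosphate enzymes Pgd (log2 change -1.79), G6pdx (-1.56) and Tkt (-1.37). G6pdx was not called without control library 1 (0.0539). Pgd and Tkt were called under every alternative run.

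Among 9 genes of acyl chain activation and further elongation 1 rose and 3 fell, with a median of -0.33. Acsl1, an acyl-CoA synthetase, rose (log2 change 1.72, adjusted p = 0.00339), while Acsl5 (-1.13), the elongase Elovl1 (-1.15) and the acyltransferase Lpcat3 (-1.03) fell. None of these 4 was called without control library 1 (adjusted p from 0.0655 to 0.111). In triglyceride assembly 2 of 6 fell, Lpin2 (log2 change -1.31) and Agpat3 (-0.78), and the median was -0.64. Agpat3 was not called without control library 1 (0.0984), control library 3 (0.0623) or gelADSC library 2 (0.112).

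For sterol esterification, efflux and transport, 1 of 13 rose and 3 fell, with a median of -0.26, or -0.01 relative to all tested genes. Lcat, which esterifies cholesterol in plasma lipoproteins, read 187 and 289 FPKM in the controls against 499 and 389 in gelADSC (log2 change 0.92, adjusted p = 0.0344). Soat2, which esterifies cholesterol inside the hepatocyte, read 52.9 and 41.4 FPKM in the controls against 20.9 and 25.7 in gelADSC (log2 change -0.99, adjusted p = 0.0127). The half-transporters for sterol secretion into bile fell as well, Abcg5 with a log2 change of -0.92 and Abcg8 with -0.90. None of these 4 was called without control library 1 (adjusted p from 0.0621 to 0.229). Lcat was also not called without gelADSC library 2 (0.0771), nor Abcg8 without control library 3 (0.12) or gelADSC library 2 (0.193). In other branches of isoprenoid supply 2 of 11 fell, Aacs, acetoacetyl-CoA synthetase (log2 change -1.67, adjusted p = 0.00819), and Nus1, a subunit of the dolichol-forming transferase (-1.01, adjusted p = 0.00931). Both calls were lost without control library 1 (0.134 for Aacs, 0.082 for Nus1), and that of Aacs also without control library 3 (0.0637). With median ratio scaling the calls of Aacs, Lcat, Abcg5, Abcg8, Lpcat3 and Agpat3, and of Slc25a1 and Taldo1 in the supply list, were lost (adjusted p from 0.0547 to 0.138).

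Adipocytes also express lipogenic genes, so their markers were read in the same libraries. Adipoq, a defining adipocyte gene, read 0.652 FPKM in control library 1 and 0.765 in gelADSC library 2, and was listed at 0 in control library 3 and gelADSC library 3. The same 4 of 6 adipocyte markers (Adipoq, Plin1, Lep and Retn) were listed at 0 in those libraries. The summed level of the list was 105 and 53.5 FPKM in the controls against 43.0 and 12.6 in gelADSC, mostly Fabp4. Of 6 adipose stromal markers all were above 0, with sums of 51.4 and 30.5 FPKM in the controls against 35.1 and 27.5 in gelADSC. The bile duct list summed to 170 and 311 FPKM in the controls against 57.7 and 49.5 in gelADSC, mostly Spp1. The Kupffer cell list gave 193 and 240 against 262 and 146 FPKM, and its genes went both ways. Cd5l and Adgre1 read higher in both gelADSC libraries than in both controls and Vsig4 lower, while Clec4f, Timd4 and Marco overlapped. Neutrophil and monocyte markers gave 73.3 and 69.0 against 72.9 and 26.0 FPKM. Of these, S100a8, Ly6c2, Ccr2 and Retnlg read lower in both gelADSC libraries than in both controls, and S100a9 overlapped. For stellate cells the sums were 127 and 63.9 against 110 and 99.0 FPKM, mostly Dcn. In that list Lrat, Reln and Colec11 read higher in both gelADSC libraries than in both controls, while Dcn and Des overlapped. For sinusoidal endothelium the sums were 70.3 and 67.0 against 76.9 and 77.2 FPKM, but its genes went both ways. Stab2, Clec4g and Kdr read higher in both gelADSC libraries than in both controls, and Lyve1 and Pecam1 lower. T and B cell markers summed to 0.197 and 0.122 FPKM in the controls against 0.933 and 1.25 in gelADSC, low in all 4 libraries. The part of other cell types in the results was not tested.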

How the data were processed

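The deposited table has 1 value per mouse gene symbol and library, and its header names no unit. The unit was read as FPKM because Cufflinks 2.2.1 is listed, with Trimmomatic 0.38 and TopHat2 2.1.1, per the submitters' processing notes, and because the deposited values are not whole and their steps depend on the gene. A human build, hg19, is listed too and cannot serve mouse symbols. For the annotation and the authors' counting step, nothing is given in the sources used here. RefSeq coordinates (GRCm38.p6) are therefore given only for promoters. Column numbers do not match the sample titles, so columns were tied to groups only.

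Tests ran on genes whose mean reached 1 FPKM, on log2(FPKM + 1), without further scaling, with limma 3.58.1 (R 4.3.3, mean-variance trend, two-sided). The script was tested on simulated data. Alternatives were pseudocounts of 0.1 and 5, no filter, a mean of at least 5 FPKM, median ratio scaling, quantile normalization, no trend, and each library left out. Depth was inferred from values under 0.2 FPKM: in 87.0% to 87.8% of the genes compared with control library 1, values were in ratios of whole numbers up to 10 (tolerance 0.001). Totals used the exon lengths of GENCODE M21 and are approximate.

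Members are given with the value of every library; each further list names at most 3 called genes in each direction. The lists and their counts leave out 1 gene chosen for them at first, which is not reported here. Members and lists were chosen with earlier results of these data known, so counts over them are descriptions.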

Additional observations from a re-analysis of the deposited data

How the results depend on the processing

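No paired analysis was possible because the columns of the 2 groups share only the number 3 and do not match the sample titles. The direction of the branch medians stayed the same under all alternatives run, while the number of calls depended strongly on them.

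All genes called lower came to 730 with no filter, 948 after scaling by median ratios and 1000 after quantile normalization. With single libraries left out, 279 to 815 genes were higher and 326 to 1765 lower. Sterol branch genes called lower numbered 3 with no filter, 2 after median ratio scaling, 3 after quantile normalization and 2 to 15 with a library left out; 0 were called higher with no filter and 0 to 1 with a library left out. In the fatty acid branch, 2 were lower with no filter, 1 with either scaling and 1 to 5 with a library left out; 0 were higher at a pseudocount of 5, with no filter or without the trend, and 0 to 2 with a library left out. Of the regulators 1 was lower with no filter and with either scaling, and 1 to 3 with a library left out; 0 were higher with no filter and 0 to 1 with a library left out. In the further lists 2 were higher with no filter and 8 lower with median ratio scaling; leaving out libraries gave 1 to 4 higher and 4 to 17 lower. The regulators' median was -0.47 after median ratio scaling, -0.43 after quantile normalization and -0.92 to -0.49 with a library left out, and that of the sterol branch -1.69 to -0.73. The cause was not tested, except that each left-out library takes the spread from the other group alone.

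Log2 changes of some genes that were not called turned sign, and that of Stard4 came to 0 with quantile normalization. Sc5d ran from -0.15 to 0.2 with a library left out. Acaca was at 0.16 with either scaling and at -0.23 to 0.02 with a library left out. Acacb was at 0.19 after median ratio scaling, 0.17 after quantile normalization, and -0.35 to 0.21 with a library left out. Scap was at 0.15 after median ratio scaling and 0.17 after quantile normalization. With a library left out, Acss2 ran from -1.04 to 0.13, Thrsp from -0.59 to 1.82, Fads1 from -0.06 to 0.29 and Gpam from -0.12 to 0.38.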
